A study of Mus musculus with 11 samples.

Results

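The nuclear genes of respiratory complexes II to V were followed in the gingival epithelium of 11 Langerin-DTR mice. The members were the genes with values in the deposited table whose symbol began with Uqc, Sdh, Atp5 or with Cox and a digit, without pseudogenes marked -ps. They were 59 of 19170 genes with values, of which 8 belong to complex II, 11 to complex III, 23 to complex IV and 17 to complex V. By role, 43 members encode subunits and 16 encode assembly factors, and 56 of the 59 averaged at least 10 normalized counts. Another 7 gene names of the same kind, among them the muscle isoforms Cox6a2 and Cox8b, and 11 pseudogenes were listed without a value. In Langerin-DTR mice langerin control drives a diphtheria toxin (DT) receptor, and a dose of DT therefore removes the cells that make langerin, in this epithelium chiefly Langerhans cells (LCs). The control group of 5 mice received PBS and the other group of 6 mice received DT, both at postnatal days 17, 24 and 31. All 11 mice were killed at 8 weeks. They are described as males whose LCs had returned by that age. Both groups carry the receptor, and their only stated difference is the injection. The reads counted per mouse ran from 17509328 to 24325513. Normalized counts are reads per gene divided by a size factor for each mouse, and epithelial markers such as Krt13 and Krt14 were all detected (10 of 10, with summed levels of 2613100 to 2704300 normalized counts after PBS and 2639100 to 2880900 after DT).

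Mitochondria make ATP by passing electrons along a chain of protein complexes in their inner membrane. Complex II, succinate dehydrogenase, is also an enzyme of the citric acid cycle and hands electrons from succinate to ubiquinone. Complex III passes them on to cytochrome c, complex IV (cytochrome c oxidase) gives them to oxygen, and complex V (ATP synthase) uses the proton gradient to form ATP. All subunits of complex II are encoded in the nucleus, whereas complexes III, IV and V join nuclear subunits to a few that are encoded by mitochondrial DNA. Assembly factors insert heme, copper, iron-sulfur clusters and flavin or hold unfinished subunits and are not part of the finished complex. In keratinocytes, as in other cells, these genes are expressed throughout, and in many of them the start region binds the factors NRF1 and GABP.

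The stretches before the start sites of 6 members are shown, and their part in the levels of the members was not tested. They belong to the member of each complex with the highest level per kilobase for which an exon-free stretch of at least 60 bases could be read, and to the paralogues Cox6b1 and Cox6b2, of which the first was abundant and the second nearly absent. The letters come from RefSeq on GRCm38.p6 and run 5′ to 3′ on the strand of the gene, and annotated exons were left out. Capitals mark the GC box GGGCGG or the ETS core CCGGAAG, which GABP binds, on either strand. The stretch ends 68 bases before the start in Sdhb, 37 in Cox6b1, 34 in Atp5b and 1 in Uqcrh. A stretch without capitals can lie in a window with a match. In the 250 bases before the start, Cox6b1 has a CCGGAAG and Cox6b2 a GGGCGG outside the letters shown.
Sdhb (chr4:140961053-140961202, plus strand): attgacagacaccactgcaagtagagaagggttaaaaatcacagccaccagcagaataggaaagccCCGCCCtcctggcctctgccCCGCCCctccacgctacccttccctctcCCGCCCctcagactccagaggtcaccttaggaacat
Uqcrh (chr4:116075072-116075221, minus strand): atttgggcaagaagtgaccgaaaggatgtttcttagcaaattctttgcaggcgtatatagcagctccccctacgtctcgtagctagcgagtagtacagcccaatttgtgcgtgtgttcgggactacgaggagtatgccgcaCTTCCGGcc
Cox8a (chr19:7217617-7217766, minus strand): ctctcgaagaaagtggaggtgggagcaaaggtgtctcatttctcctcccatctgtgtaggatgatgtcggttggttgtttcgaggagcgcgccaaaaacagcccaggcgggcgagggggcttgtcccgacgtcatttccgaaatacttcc
Atp5b (chr10:128083123-128083272, plus strand): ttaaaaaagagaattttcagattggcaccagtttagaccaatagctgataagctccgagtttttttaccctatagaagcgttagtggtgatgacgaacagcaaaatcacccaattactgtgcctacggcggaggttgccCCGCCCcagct
Cox6b1 (chr7:30626152-30626301, minus strand): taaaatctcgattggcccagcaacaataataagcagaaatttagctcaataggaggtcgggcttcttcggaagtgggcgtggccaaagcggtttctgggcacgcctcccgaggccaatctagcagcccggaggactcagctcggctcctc
Cox6b2 (chr7:4753095-4753225, minus strand): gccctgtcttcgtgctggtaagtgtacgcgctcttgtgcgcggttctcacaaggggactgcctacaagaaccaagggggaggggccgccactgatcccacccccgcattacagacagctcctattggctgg

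Across the 250 bases before the start, 52 windows of 48 members could be searched on both strands. CCGGAAG was in 15 of these windows (28.8%) and in 6.91% of all 32851 windows of the genome. The NRF1 core GCATGCGC was in 5 windows (9.62%), those of Atp5g2, Atp5k, Atp5l, Cox6a1 and Sdhb, and in 2.26% of all windows. GGGCGG was in 22 windows (42.3%) against 32.7% of all windows, and the TATA box TATAAA was in 3 windows (5.77%) against 12.4%. A match is a run of letters and not a measured binding site.

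The level of each member was compared per kilobase of its transcript, which is fair between genes only where reads fall along the whole transcript. The labels name a kit of that kind, but the trimming in the study's methods follows a guide for libraries of transcript ends, so the order of levels between genes is uncertain. The length used was that of the shortest principal transcript, and for several members the longest one is many times longer. On this scale Atp5b, the catalytic beta subunit of ATP synthase, was highest of all members with 8229 normalized counts per kilobase, followed by Atp5a1, the alpha subunit of the same F1 head, with 4868. The 14 subunits of complex IV reached up to 4414 (Cox4i1), the 8 subunits of complex III lay between 1155 (Uqcrfs1, the Rieske iron-sulfur protein) and 4197 (Uqcrh, the hinge protein beside cytochrome c1), and the 17 subunits of complex V between 1230 (Atp5o) and 8229. The 4 subunits of complex II were lower, between 461 (Sdhc) and 816 (Sdhb) normalized counts per kilobase. All 4 lay below every subunit of complexes III and V on this length. On the longest principal transcript they still lay below every subunit of complex III, of which Uqcrq was lowest with 908 normalized counts per kilobase. In complex V, Atp5g1 at 218 and Atp5md at 288 then lay below all 4. Assembly factors were lower than the subunits, with medians per kilobase of 79.2 in complex II, 286.5 in complex III and 114.5 in complex IV, against subunit medians of 669, 2263 and 2441. Uqcc2, which helps to make cytochrome b, was the highest assembly factor with 957 normalized counts per kilobase. The 56 members with a mean of at least 10 added up to between 0.412% (PBS 4) and 0.534% (PBS 5) of all normalized counts in a mouse.

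**Figure D1:**
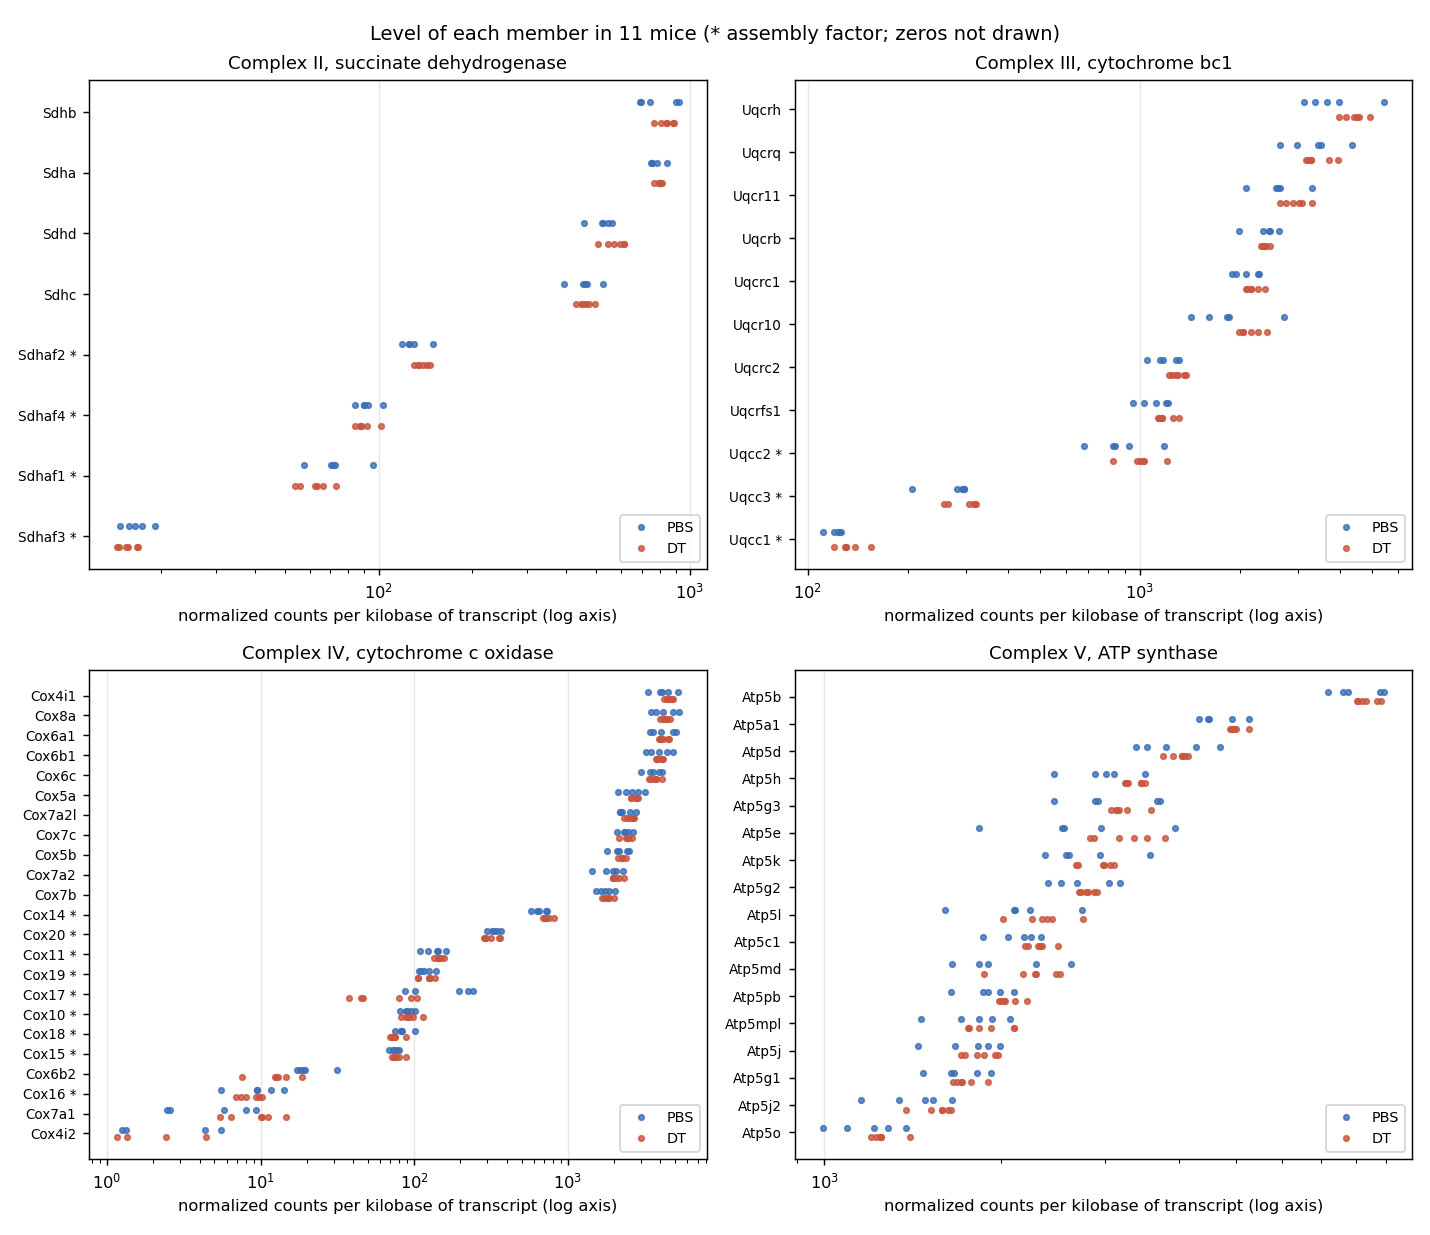
Normalized counts per kilobase of transcript (log axis) of the 59 members in each of 5 PBS-treated and 6 DT-treated mice, 1 point per mouse, in a panel for each complex with assembly factors starred. With the length of the shortest principal transcript, subunits lie above assembly factors in each of complexes II to IV except for Cox6b2, Cox7a1 and Cox4i2, and the points of the groups overlap in every member.

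Paralogous subunits were expressed very unequally. Cox4i1, the general form of subunit 4, had 2953, 3055, 3352, 2489 and 3868 normalized counts across PBS 1 to PBS 5, against 3167 to 3601 (median 3402) after DT, whereas Cox4i2, known from lung and from oxygen-sensing cells, had between 0 and 4.02 normalized counts in every mouse. Cox6b1 took 99.5% ± 0.237 (SD, n = 5) of the level of subunit 6B per kilobase after PBS and 99.7% ± 0.0800 (SD, n = 6) after DT. Its paralogue Cox6b2, best known from testis, had 8.05 to 14.6 normalized counts after PBS and 3.5 to 8.59 after DT. Cox7a1, the form of subunit 7A of heart and skeletal muscle, had 0.972 to 3.64 normalized counts after PBS and 2.15 to 5.73 after DT. These 3 low paralogues are at a level where single reads decide the value.

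Where at least 2 paralogues were expressed, their shares were compared over mice. The c ring of ATP synthase is built from identical proteins that come from 3 genes, and Atp5g3 gave 41.0% ± 1.69 of their summed level per kilobase after PBS (SD, n = 5) and 41.5% ± 0.956 after DT (SD, n = 6). Atp5g2 gave 36.5% ± 0.960 and 36.1% ± 1.32, and Atp5g1 gave 22.5% ± 0.924 and 22.4% ± 0.539. These shares depend on the transcript taken for the length, since with the longest principal transcript Atp5g3 gave 61.9%, Atp5g2 33.7% and Atp5g1 4.36% after PBS, and 62.5%, 33.2% and 4.31% after DT. Cox7a2, the broadly expressed form of subunit 7A, took 44.0% ± 2.93 and 44.9% ± 1.61, with nearly all of the rest from Cox7a2l, a related protein that joins complexes III and IV in supercomplexes. Differences between the groups were below 1.0 percentage points in all 5 shares, with exact p between 0.524 and 0.729 (two-sided exact permutation test over 462 splits of the mice, adjusted p = 0.729 for each of 5 shares). DT was thus not followed by a detectable shift between paralogues.

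No member passed the threshold for a difference between DT-treated and PBS-treated mice, which was an adjusted p under 0.1 by limma over all 19170 genes (0 of 59, where 0.558% of all genes passed). At an unadjusted p under 0.05, 5 of the 59 members were found, 3 higher (Uqcrc2, Cox14 and Atp5h) and 2 lower after DT (Cox17 and Cox6b2), beside 11.5% of all genes. The groups overlapped in all 59 members, and they were apart in 2.11% of 13477 genes averaging at least 10 normalized counts. Small positive differences were nevertheless the rule. The log2 fold change was above 0 in 50 of 59 members, as in 47.3% of all genes, and its median was 0.07 over the members and -0.01 over all genes. Among genes averaging at least 10 it was above 0 in 49 of 56 members and in 50.7% of all genes, whose median was 0.0022. Short transcripts shared the shift, with medians of 0.07 in 28 members and 0.06 in all 646 genes of at most 815 bases. Above that length the medians were 0.08 in 28 members and 0.0001 in 12808 genes. By complex the median was 0.02 in complex II (5 of 8 above 0), 0.13 in complex III (11 of 11), 0.04 in complex IV (17 of 23) and 0.09 in complex V (17 of 17). Among the 40 subunits with a mean of at least 10, all 40 were above 0 with a median of 0.08, whereas 9 of the 16 assembly factors were above 0 with a median of 0.03. These counts rested largely on PBS 4, since 33 of 59 members were above 0 without this mouse, with medians of -0.0045, 0.08, -0.01 and 0.02 in complexes II, III, IV and V. Without PBS 5 instead, 50 of 59 were above 0, with medians of 0.02, 0.15, 0.07 and 0.15 in the same complexes. With the correction for transcript length and GC content 40 of 59 were above 0 (4, 10, 11 and 15 in complexes II, III, IV and V), and under quantile normalization 44 of 59. In epithelium sequenced as bulk tissue, fewer cells of a type and less RNA per cell cannot be told apart.

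**Figure D2:**
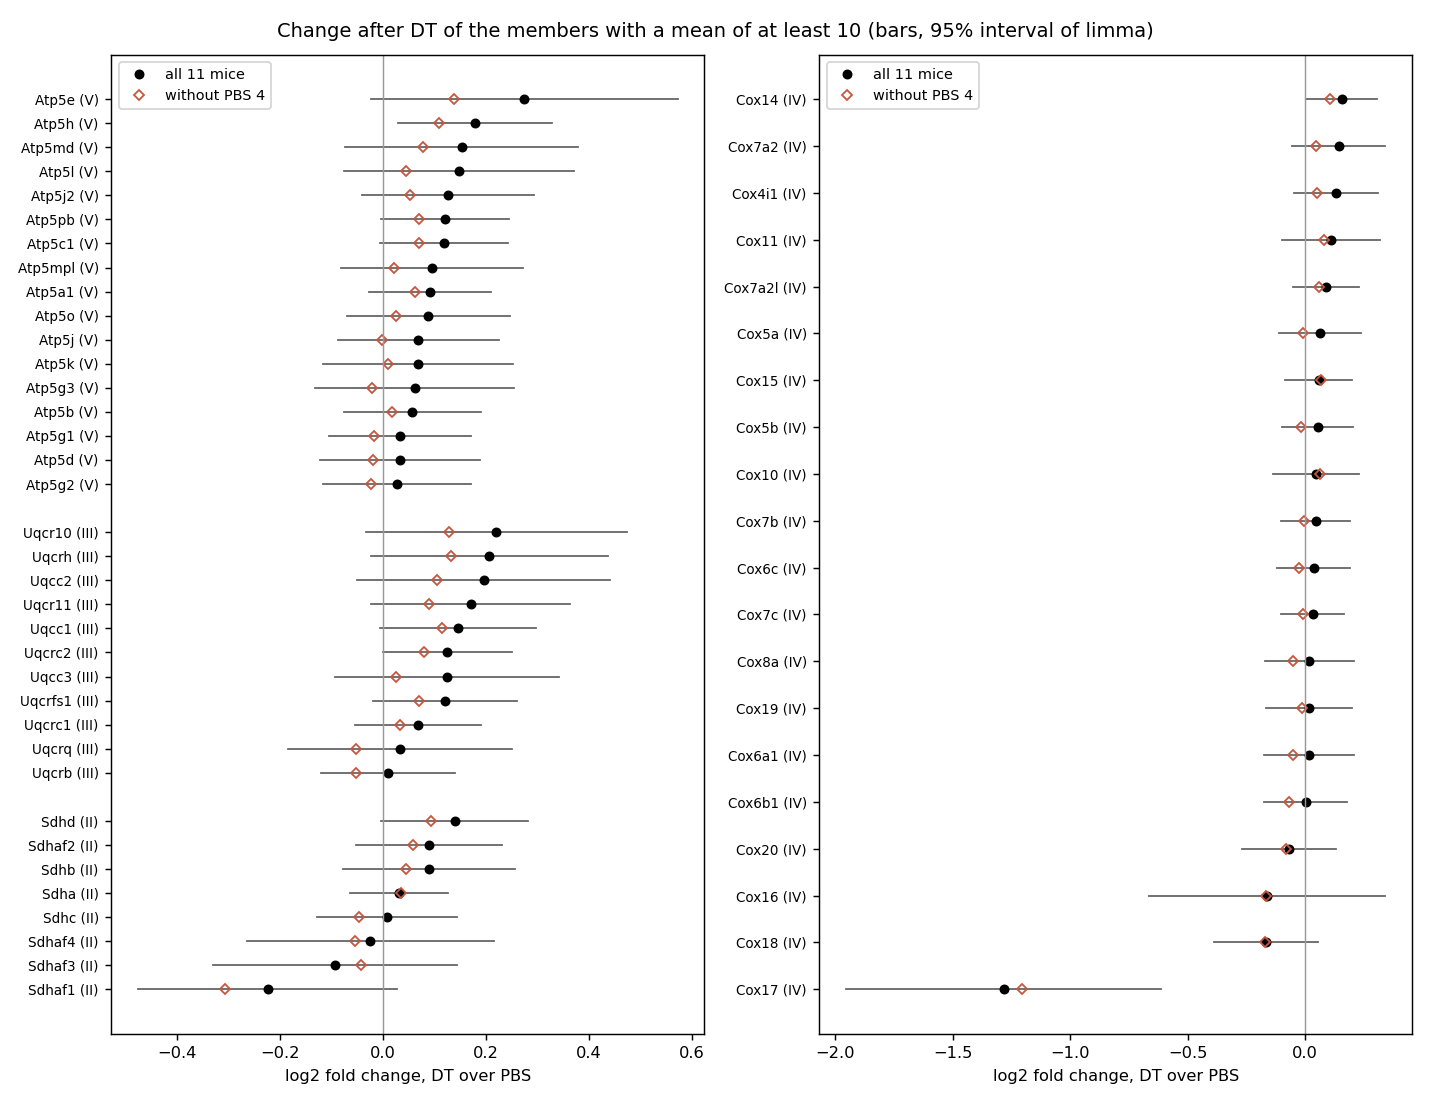
Log2 fold change of DT over PBS for the 56 members averaging at least 10 normalized counts, with complexes II, III and V on the left and complex IV on the right. Filled points are the estimates over all 11 mice with their 95% interval from limma, and open diamonds are the estimates without PBS 4, which lie nearer to 0 or below it for most subunits.

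In complex II, Sdhd, a membrane anchor, had the smallest p. Its level was 645, 671, 644, 563 and 690 normalized counts across PBS 1 to PBS 5, against 623 to 758 (median 719) after DT, so that 4 of the 5 PBS-treated mice lay within the range of DT. The log2 fold change was 0.14 (SE 0.07, limma adjusted p = 0.441). Sdha, the flavoprotein that oxidizes succinate, was the steadiest member, with a highest value only 1.13 times the lowest (2172 to 2445 normalized counts after PBS and 2218 to 2358 after DT). Sdhb, the iron-sulfur subunit, had a log2 fold change of 0.09 (SE 0.08). Of the assembly factors, Sdhaf1, which serves the iron-sulfur clusters of Sdhb, had 143 to 239 normalized counts after PBS and 134 to 181 after DT, with a log2 fold change of -0.22 (SE 0.12, limma adjusted p = 0.491). Sdhaf2, which attaches flavin to Sdha, had 0.09 (SE 0.07), and Sdhaf3, the lowest of complex II per kilobase, had -0.09 (SE 0.11). Thus 1 of the 4 assembly factors and all 4 subunits of complex II had a log2 fold change above 0.

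Complex III held the highest median. Uqcrc2, a core protein, had 2179, 2233, 2491, 1994 and 2429 normalized counts across PBS 1 to PBS 5, against 2316 to 2619 (median 2454) after DT. PBS 3 and PBS 5 lay inside the range of the DT-treated mice and the other PBS-treated mice below it, and the log2 fold change was 0.13 (SE 0.06, limma adjusted p = 0.434). The hinge protein Uqcrh varied more, with 2001, 2168, 1844, 1704 and 2979 normalized counts after PBS and 2174 to 2703 (median 2444) after DT. PBS 5 lay above all DT-treated mice and the other 4 PBS-treated mice below all of them, and the log2 fold change was 0.21 (SE 0.11, limma adjusted p = 0.487). Without PBS 5 it was 0.33 with an adjusted p of 0.0510 by limma, and Uqcr10, a small subunit named here after its values were seen, likewise moved from 0.22 (adjusted p = 0.498) to 0.36 (limma adjusted p = 0.0543). Calls over all genes without PBS 5 were 155 higher and 104 lower, against 60 and 47 with all mice. Uqcrq, a small subunit next to cytochrome b, had a log2 fold change of 0.03 (SE 0.10), and it was -0.05 without PBS 4 and -0.01 with the correction for transcript length and GC content. The assembly factor Uqcc1 had 292 to 332 normalized counts after PBS and 317 to 409 after DT, with a log2 fold change of 0.15 (SE 0.07, limma adjusted p = 0.446).

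In complex IV the assembly factor Cox17 differed most. Cox17 carries copper to the proteins that load cytochrome c oxidase, and it lies on chromosome 16 of GRCm38 from 38346991 to 38352763. Its level was 99.6, 108, 45.3, 86.5 and 38.8 normalized counts across PBS 1 to PBS 5, against 16.7 to 46.3 (median 28.03) after DT. PBS 1, PBS 2 and PBS 4 lay above every DT-treated mouse, and PBS 3 and PBS 5 lay within the range of DT. The log2 fold change was -1.28 (SE 0.32), and it did not pass the threshold (limma adjusted p = 0.126), although it passed with a correction for transcript length and GC content (0.0962), with array weights (0.0462) and without PBS 3 (0.0962) or PBS 5 (0.0431). Over all genes 60 were higher and 47 lower in the main comparison. These counts were 94 and 51 with the correction, 110 and 79 with array weights, 58 and 68 without PBS 3, and 155 and 104 without PBS 5. The level of Cox17 is uncertain, because 57.9% of the 444 bases of its shortest principal transcript, though 4.45% of all its exon bases, also belong to Gm21987, an overlapping gene on the same strand that is listed without a value, and the counting tool leaves out reads in shared exons by default. Cox16 is uncertain in the same way, with 88.8% of its transcript shared with Gm20498 and 56.8% of its exon bases shared with genes on its strand. So is Atp5o, with 29% of its transcript and 12.3% of its exon bases shared with another gene identifier of the same symbol that is listed without a value.

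**Figure D3:**
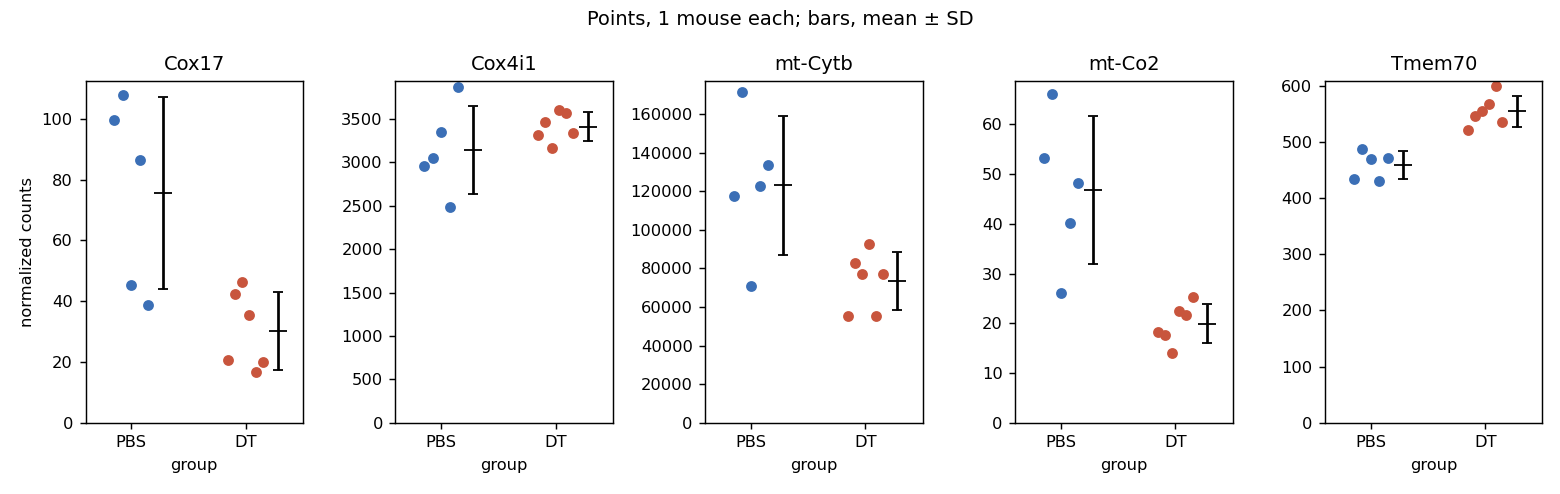
Normalized counts of Cox17, Cox4i1, mt-Cytb, mt-Co2 and Tmem70 in each PBS-treated (n = 5) and DT-treated (n = 6) mouse, with the mean ± SD beside the points and every axis starting at 0. The groups separate for mt-Co2 and Tmem70 and overlap for Cox17, Cox4i1 and mt-Cytb.

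The other members of complex IV averaging at least 10 normalized counts had log2 fold changes between -0.17 (Cox18) and 0.15 (Cox14). Cox6b2, lower after DT, and Cox7a1, higher, lay further from 0 at the few reads given above. Cox14, which takes part in making the Co1 subunit, had 457, 466.5, 525, 415 and 532 normalized counts across PBS 1 to PBS 5, against 501 to 585 (median 522) after DT, with PBS 1, PBS 2 and PBS 4 below all DT-treated mice. Its log2 fold change was 0.15 (SE 0.07, limma adjusted p = 0.416). Cox4i1 had 0.13 (SE 0.08, limma adjusted p = 0.583), and Cox8a, among the highest subunits per kilobase, had 0.02 (SE 0.09, limma adjusted p = 0.962) with an interval of -0.17 to 0.21. Cox6b1 had 0.0021 (SE 0.08, limma adjusted p = 0.994). Cox8a and Cox6b1 turned below 0 under quantile normalization (-0.0021 and -0.01) and with the correction for transcript length and GC content (-0.02 and -0.04). All 11 subunits with a mean of at least 10 lay above 0 with a median of 0.04, and 5 of 9 assembly factors did.

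All 17 subunits of complex V had a log2 fold change above 0, from 0.03 in Atp5g2 to 0.27 in Atp5e, the small epsilon subunit of the central stalk. The smallest p belonged to Atp5h, a subunit of the peripheral stalk that holds the F1 head still. Atp5h had 1804, 1884, 1942, 1535 and 2195 normalized counts across PBS 1 to PBS 5, against 2031 to 2189 (median 2106) after DT, so that 4 PBS-treated mice lay below all DT-treated mice and PBS 5 above all of them. The log2 fold change was 0.18 (SE 0.07, limma adjusted p = 0.338), and without PBS 5 it came to 0.24 with an adjusted p of 0.1004. Atp5pb, another part of the peripheral stalk, had 2979, 3048, 3195, 2633 and 3367 normalized counts after PBS and 3184 to 3547 after DT (log2 fold change 0.12, SE 0.06, limma adjusted p = 0.446). Atp5c1, the rotating gamma subunit, had a log2 fold change of 0.12 (SE 0.06, limma adjusted p = 0.453). The 2 most abundant subunits, Atp5b and Atp5a1, had 15454 ± 1477 and 11633 ± 956 normalized counts after PBS (SD, n = 5) and 16027 ± 641 and 12359 ± 333 after DT (SD, n = 6), which are log2 fold changes of 0.06 (SE 0.06) and 0.09 (SE 0.06), neither past the threshold. Under quantile normalization both were slightly below 0 (-0.0051 and -0.01), and so were Atp5g2 (-0.02) and Atp5g1 (-0.01) of the c ring with the correction for transcript length and GC content. By part of the enzyme, medians were 0.12 in the central stalk (3 genes), 0.10 in the peripheral stalk (4 genes), 0.13 in the membrane part (5 genes), 0.07 in the F1 head (2 genes) and 0.03 in the c ring (3 genes).

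The mice differed from each other by more than the groups did. PBS 4 was the lowest of 11 mice in 44 of the 56 members with a mean of at least 10, a share of 78.6%, whereas it was lowest in 17.3% of all 13477 genes. It was lowest in all 11 members of complex III and all 17 of complex V, and in 39 of 40 subunits against 5 of 16 assembly factors. In subunits its level was 81.3% of the median of the other 10 mice (median over 40 subunits), from 59.9% for Atp5e to 98.8% for Sdha. PBS 5 was the highest mouse in 18 members, PBS 3 in 14 and DT 4 in 12. The mean deviation of the subunits from the gene means was -0.30 in PBS 4 and 0.17 in PBS 5 on the log2 scale, against -0.03 to 0.15 in the DT-treated mice. Hence PBS 4 and PBS 5 enclosed all 6 DT-treated mice.

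**Figure D4:**
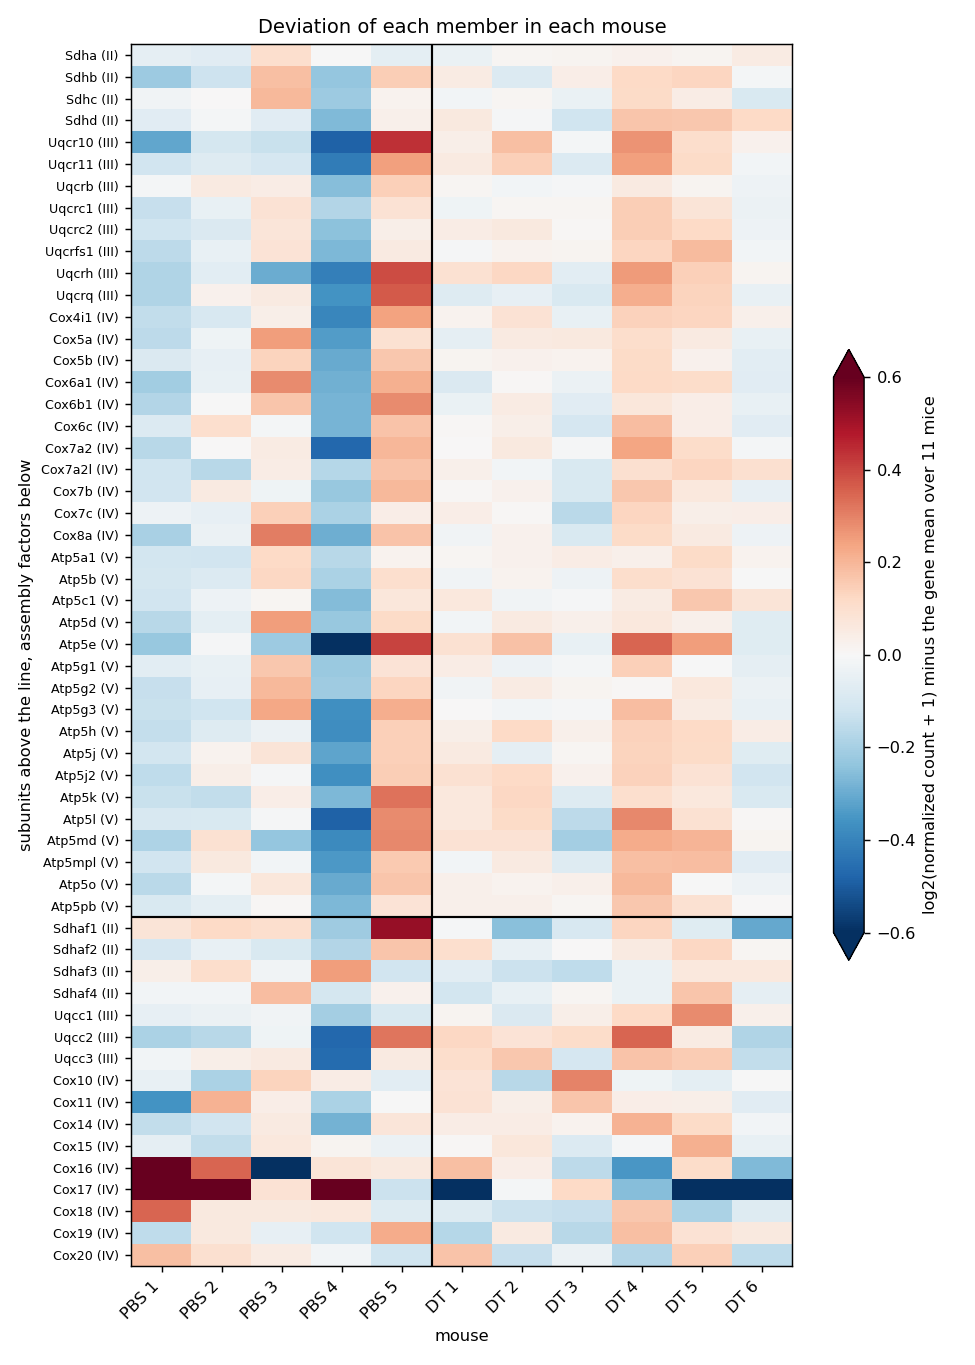
Log2(normalized count + 1) minus the mean of the gene over 11 mice, for 40 subunits (above the horizontal line) and 16 assembly factors (below), with PBS-treated mice left and DT-treated mice right of the vertical line. PBS 4 is the lowest mouse in 39 of 40 subunits, and PBS 5 and DT 4 are high in most of them. Among the assembly factors PBS 4 is lowest in 5 of 16, which include Uqcc1, Uqcc2 and Uqcc3 of complex III.

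The PBS-treated mice were also more unlike each other than the DT-treated mice. In all 40 subunits the SD on the log2 scale was larger after PBS than after DT, with a median SD of 0.19 after PBS and 0.08 after DT. The same held for 12 of 16 assembly factors and for 69.3% of all 13477 genes. Without PBS 4 it held for 37 of 40 subunits (64.4% of all genes), and without both PBS 4 and PBS 5 for 31 of 40 (57.8% of all genes). This difference in spread was described and not tested. Nuclear complex I subunits gave a larger SD after PBS in 36 of 37 genes, and citric acid cycle enzymes in 14 of 17.

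The gap between PBS 5 and PBS 4, a pair of mice chosen after the values were seen, was wider in short transcripts. Among subunits with transcripts of at most 815 bases, the median length of the 56 members, the median log2 difference of PBS 5 minus PBS 4 was 0.56 (23 genes), and it was 0.33 among longer ones (17 genes). Over all genes averaging at least 10 it was 0.39 for 646 genes of at most 815 bases and -0.01 for 12808 longer genes. Short genes outside the set had a median deviation of -0.22 in PBS 4, -0.12 in PBS 1, 0.16 in PBS 5 and 0.10 in DT 4, the same mice in which the subunits were low or high. Removing trends on transcript length and GC content from each mouse left the subunits at a mean deviation of -0.23 in PBS 4 and 0.12 in PBS 5. The part of transcript length in the difference between mice was not tested beyond this correction.

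**Figure D5:**
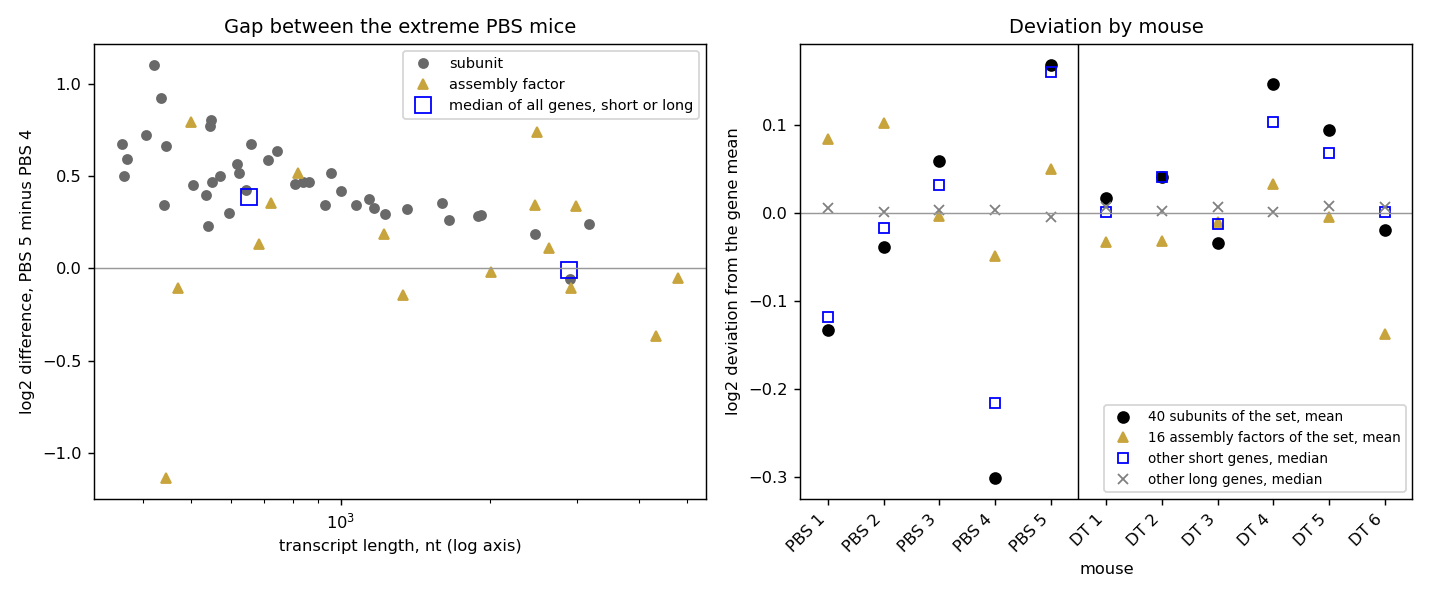
Left, log2 difference between PBS 5 and PBS 4 against transcript length (log axis) for 40 subunits and 16 assembly factors, with the medians of all genes of at most and over 815 bases as squares. Right, deviation from the gene mean in each mouse for subunits (mean), assembly factors (mean) and the other short and long genes (median), in which short genes follow the subunits from mouse to mouse and long genes stay near 0.

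The partners of these subunits were examined as lists. Of 6 mitochondrially encoded subunits of complexes III to V, 1 was lower after DT by limma and none higher, beside 0.558% of all genes called in either direction, and all 6 log2 fold changes were below 0 with a median of -0.56, opposite in sign to the medians of the nuclear partners in complexes III to V. mt-Co2, a catalytic subunit of complex IV, fell from 46.8 ± 14.9 normalized counts (SD, n = 5) to 19.9 ± 4.01 (SD, n = 6), with every DT-treated mouse below every PBS-treated mouse (log2 fold change -1.15, SE 0.23, limma adjusted p = 0.0549). This call was lost without PBS 1 (adjusted p = 0.146), PBS 2 (0.159), DT 1 (0.108), DT 3 (0.109) or DT 5 (0.119). mt-Cytb, the cytochrome b of complex III, had 117390, 171310, 71009, 122470 and 133490 normalized counts across PBS 1 to PBS 5, against 55278 to 92706 after DT, a log2 fold change of -0.72 (SE 0.19, limma adjusted p = 0.160, and 0.0259 to 0.454 over the alternatives). PBS 3 lay among the DT-treated mice and the other PBS-treated mice above them. The PBS medians were 48.3 normalized counts for mt-Co2, 37.8 for mt-Atp6 and 110 for mt-Co3, beside 122470 for mt-Cytb and 215150 for mt-Co1. Reads of mitochondrial genes can be lost to copies in the nuclear genome, so the low levels of mt-Co2, mt-Atp6 and mt-Co3 are uncertain. Their values enter the median of the 6 genes.

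Nuclear partners outside the symbols used here were close to the members. The subunits and carriers Cyc1, Cycs, Ndufa4 and Atpif1 had log2 fold changes between 0.06 and 0.13 with a median of 0.10 (4 of 4 above 0, 0 past the threshold), and PBS 4 was lowest in all 4. Cyc1, the cytochrome c1 of complex III, had 0.10 (SE 0.07, limma adjusted p = 0.628), and Cycs, cytochrome c itself, had 0.10 (SE 0.08, limma adjusted p = 0.670). Of 29 further assembly factors, 22 were above 0 with a median of 0.04, 1 rose past the threshold and 0 fell, beside the same 0.558% of all genes. The gene that rose was Tmem70, which helps to build the c ring of ATP synthase, from 458 ± 24.8 normalized counts (SD, n = 5 PBS-treated mice) to 554 ± 27.4 (SD, n = 6 DT-treated mice) (log2 fold change 0.27, SE 0.06, limma adjusted p = 0.0770), and the groups did not overlap. It lost this call without PBS 1 (adjusted p = 0.180), PBS 2 (0.107), DT 2 (0.114), DT 3 (0.128), DT 4 (0.143), DT 5 (0.204) or DT 6 (0.139). Coa6, a copper factor of complex IV, had a log2 fold change of 0.32 (SE 0.09, limma adjusted p = 0.196), with 106 to 135 normalized counts after PBS and 139 to 160 after DT.

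Among 37 nuclear subunits of complex I, 35 had a log2 fold change above 0 with a median of 0.10, 0 passed the threshold, and PBS 4 was the lowest mouse in 32. Ndufb8 had the smallest p (log2 fold change 0.20, SE 0.07, limma adjusted p = 0.291), followed by Ndufb9 (0.21, SE 0.08, adjusted p = 0.327). A list of 16 genes held transcription factors and coactivators of respiratory genes. It also held Polg, Polg2, Twnk and Polrmt, which serve the copying or transcription of mitochondrial DNA. Of these 16 genes 12 lay above 0 with a median of 0.07, and PBS 4 was lowest in 1. Ppargc1a, the coactivator that drives mitochondrial biogenesis, had 55.2 ± 10.3 normalized counts after PBS (SD, n = 5) and 39.2 ± 6.88 after DT (SD, n = 6), a log2 fold change of -0.48 (SE 0.16, limma adjusted p = 0.264), and Gabpb1, a chain of GABP, had 0.14 (SE 0.06, limma adjusted p = 0.373). Feeders of ubiquinone and carriers of ATP, ADP and phosphate had a median of 0.07 (10 of 14 above 0), with Etfa, an electron carrier of fat oxidation, at 0.09 (limma adjusted p = 0.458) and the uncoupling protein Ucp2 at -0.12 (limma adjusted p = 0.496). Citric acid cycle and other matrix enzymes had a median of 0.04 (14 of 17 above 0), with Dld at 0.09 (limma adjusted p = 0.598) and Idh3b at 0.06 (limma adjusted p = 0.662). By limma 0 genes of these 4 lists passed the threshold. At an unadjusted p under 0.05, 8 were higher in complex I, and 2 higher and 1 lower in the list with the transcription factors. The others had 0, beside 11.5% of all genes in either direction.

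Markers of other cells were checked, since muscle and brown fat are rich in these complexes. The 12 skeletal muscle markers with values summed to 101 to 173 normalized counts after PBS and 102 to 166 after DT, and the 3 of brown fat to 147 to 272 and 152 to 235, with the defining gene Ucp1 near 2 normalized counts (mean 2.20 after PBS and 2.49 after DT). Germ cell markers were all without a value (0 of 6). LC markers summed to 2080 to 4852 normalized counts after PBS and 1549 to 2971 after DT, leukocyte markers to 527 to 1634 and 484 to 1929, fibroblast markers to 1252 to 1450 and 1109 to 1594, endothelial markers to 57.7 to 98.4 and 45.3 to 121, and those of pericytes and smooth muscle to 5488 to 6425 and 5419 to 6198. The fibroblast sum was mostly Dcn, with means of 1174 after PBS and 1259 after DT. The pericyte sum was mostly Notch3, with 5251 and 5260. Most of the LC sum came from Cd74, Epcam, H2-Ab1 and H2-Aa, with PBS medians of 1095.2, 642.71, 420.78 and 417.86 normalized counts. Cd207, the gene of langerin, had medians of 18.464 normalized counts after PBS and 18.295 after DT. Its range after DT lay within its range after PBS. By median log2 fold change the lists stood at -0.36 for LC markers (0 of 6 above 0), -0.45 for fibroblast (2 of 6), -0.20 for leukocyte (2 of 8), -0.25 for skeletal muscle (3 of 12), 0.12 for brown fat (2 of 3), 0.02 for endothelial (3 of 6), 0.0030 for pericyte and smooth muscle (4 of 7) and 0.07 for epithelial markers (8 of 10). A mean of at least 10 normalized counts was reached by 4 of 12 skeletal muscle, 1 of 6 endothelial and 3 of 7 pericyte markers. The same held for 5 of 8 leukocyte, 4 of 6 fibroblast and 2 of 3 brown fat markers. Medians of these lists thus rest partly on few reads. By limma 0 genes of these lists passed the threshold, where 0.558% of all genes passed. At an unadjusted p under 0.05 there were 1 lower LC marker, 1 lower fibroblast marker, 2 lower leukocyte markers, 1 higher and 1 lower pericyte marker and 1 higher epithelial marker. These counts stand beside 11.5% of all genes in either direction. The mean deviation of LC markers was -0.41 in PBS 4, 0.84 in PBS 3, 0.65 in PBS 5 and -0.62 in DT 3 on the log2 scale, and that of the subunits in these mice was -0.30, 0.06, 0.17 and -0.03. The part of LC content or of other cells in the levels of the members was not tested.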

How the data were processed

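RNA was sequenced from gingival epithelium of 11 Langerin-DTR mice, 5 given PBS and 6 given DT. Per the labels and the study's methods, the authors trimmed the reads, aligned them with TopHat, counted them per gene with htseq-count and deposited counts divided by DESeq2 size factors (normalized counts). The methods name GRCm38, whereas the submitters' processing notes name GRCm39, cutadapt 2.10, TopHat2 2.1.1, HTSeq 2.01 and DESeq2 1.36.0, so the build and versions behind the table are uncertain. A strand setting for counting is not given in the sources used here. Of 55414 genes listed, 19170 held values. Low values were whole multiples of what 1 read is worth in each mouse (100% within 0.05 reads), and high values were not checked. The worth of 1 read gave the reads per mouse. Gene positions and transcript lengths came from GENCODE M21 on GRCm38, and the length was that of the shortest principal transcript.

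DT was compared with PBS by limma 3.58.1 in R 4.3.3, with an intensity trend and no covariate, on log2(normalized count + 1) of all 19170 genes, with Benjamini-Hochberg adjustment and a threshold of 0.1. Fold changes of low genes are understated on this scale. Paralogue shares were compared by exact permutation tests. The script was tested on simulated data. The members and lists were chosen with earlier results of these data known. Values are given for the 3 members of each complex with the smallest p, the 2 highest and the lowest per kilobase, the paralogues, and the 2 genes of each other list with the smallest p. Members under a mean of 10 are given by level. Nothing in the labels says whether mice of a group shared a litter or a cage. Alternatives were other scalings, pseudocounts, a filter, array weights, a length and GC correction, replicate blocks and leaving out each mouse. A block with the length and GC correction and shares on the longest principal transcript were added after the data were seen.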

Additional observations from a re-analysis of the deposited data

Results flagged for a closer look

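In 8 of 98 groups of mice examined, the highest or lowest mouse stood apart from the others by more than the 95% limit of Dixon's test, which chance alone exceeds in about 1 of 20 groups. Over all 13477 genes averaging at least 10 normalized counts, 4.45% of the PBS groups and 5.55% of the DT groups exceeded it. Among members, Atp5a1 was at 13020 normalized counts in DT 5, with the other DT-treated mice at 12110 to 12370, and Atp5o was at 1173 in DT 4, with the others at 1005 to 1048. The share of Atp5g3 in the c subunit was 43.42% in DT 4, with 40.72% to 41.46% in the others. Of the other lists, Ndufb9 of complex I was at 671 normalized counts in DT 4 (others 592.4 to 604.4) and Etfa at 2628 in DT 5 (others 2394 to 2449). Gabpb1 was at 474.3 in DT 6 (others 436.7 to 446.6) and Ppargc1a at 52.38 in DT 3 (others 33.28 to 40.12). Idh3b was lowest in PBS 4 with 1452 normalized counts, where the other PBS-treated mice had 1604 to 1655.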

How the results depend on the processing

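All genes past the threshold numbered 60 higher and 47 lower after DT. They were 110 and 79 with array weights, 94 higher with the length and GC correction, and 19 to 155 higher and 8 to 104 lower when a mouse was left out. The most in each direction came without PBS 5. Members past the threshold were 0 to 2 higher and 0 to 1 lower without a mouse. Cox17 was the 1 lower member with array weights and 1 with the length and GC correction, and without PBS 3 or PBS 5. Members above 0 numbered 33 to 51 without a mouse, lowest without PBS 4.

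With a replicate block by title number, 24 genes were higher and 11 lower. With the block by library number 0 were higher and 0 lower by limma, and with the title number and the length and GC correction 28 were higher and 14 lower. DT 6 is alone in its block by title number and DT 5 by library number, so that mouse does not enter the comparison. Without a block, 21 genes were higher and 9 lower when DT 6 was left out, and 19 and 8 when DT 5 was. No member passed under a block. Of the genes called outside the members, Tmem70 lost its call under the title block (limma adjusted p = 0.280), the library block (0.501) and the title block with the correction (0.191), and mt-Co2 under the library block (0.187). Mice with the same number did not deviate together (r = 0.088, 0.172, -0.233, -0.209 and 0.324 for title numbers 1 to 5), so the numbers were not taken as pairs.

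Several small log2 fold changes turned below 0. Under quantile normalization these were Atp5a1 (-0.0125), Atp5b (-0.00514), Cox6b1 (-0.0135) and Cox8a (-0.00211). With the length and GC correction they were Atp5g1 (-0.0144), Atp5g2 (-0.0216), Cox6b1 (-0.0427), Cox8a (-0.0234) and Uqcrq (-0.0127), and with the title block added Atp5g1 (-0.00463), Atp5g2 (-0.0171), Cox6b1 (-0.0348), Cox8a (-0.0195) and Uqcrq (-0.0063). Cox6b1 was at -0.00576 with the library block. Without a mouse the ranges were -0.0181 to 0.0785 for Atp5g1, -0.0227 to 0.0791 for Atp5g2, -0.0219 to 0.128 for Atp5g3, -0.0674 to 0.0734 for Cox6b1, -0.0533 to 0.0971 for Cox8a and -0.0517 to 0.130 for Uqcrq. Differences in share ranged from -0.465 to 0.0464 percentage points for Atp5g1, -0.635 to 0.106 for Atp5g2, -0.0232 to 1.05 for Atp5g3, -0.272 to 1.74 for Cox7a2 and -1.79 to 0.166 for Cox7a2l, and the difference of medians was 0.519 for Atp5g2. The cause of these changes was not tested. Medians of complexes II to V moved by less than the spread between mice, an SD of 0.07, 0.14, 0.07 and 0.13. This spread is larger than the medians themselves (0.02, 0.13, 0.04 and 0.09), so the comparison cannot show that they are stable. Without PBS 4 those of complexes II and IV were below 0 (-0.0045 and -0.01). Tests of whole reads with edgeR and DESeq2 were planned and not run. Genes at a few reads, such as Cox4i2, Cox7a1 and Cox6b2, are limited by depth.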
